A study of Mus musculus with 1 sample.

Results

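Baseline cells are the cells of 1 library of mouse gastric organoids in which none of 8 small gene sets stood high. They numbered 523 of 1892 kept cells, or 27.6% (25.6% to 29.7%, exact Clopper-Pearson interval at 95%), and the other 1369 kept cells had at least 1 set raised. Each UMI (unique molecular identifier) stands for 1 captured RNA molecule. Barcodes with fewer than 500 genes detected, or with more than 20% of UMIs from mitochondrially encoded genes, were dropped, which removed 99 of 1991. For each set, the UMIs of its genes were summed per 10000 gene UMIs of the cell, 1 was added, the natural logarithm was taken, and the value was standardized over kept cells as a z score. A set counted as raised in a cell at a z of 1 or more. The members were therefore chosen by measured values of 21 genes, and every difference from the other cells given here describes the same cells that did the choosing. With 1 library there is no replicate and no test. All intervals are 95% intervals for counting error alone, since cells of 1 library are not replicates.

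The organoids were wild type and untreated and came from the stomach. Organoids are small epithelial structures that stem cells form in a gel. They were harvested on day 7 after seeding and separated for 30 min at 37 °C in 0.05% trypsin-EDTA. The series title concerns loss of E-cadherin in gastric adenocarcinoma, and the further genotypes named in its text were not analysed here. In the stomach, stem cells give rise to mucus-making pit cells at the surface, mucous neck cells, acid-secreting parietal cells and pepsinogen-making chief cells. Cells of a gastric organoid are known to share a common epithelial background, on which programs for division, secretion, metal binding, oxygen shortage or inflammation are switched on in some cells and not in others. A cell in which none of the programs is seen may lack them, or may have had too few of its RNA molecules captured to show them.

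The 8 sets were the secreted protein gene Scgb3a1 with the cytochrome P450 gene Cyp2f2; Ndrg1, a gene of hypoxia and stress, with the surface protein gene Ly6m; the metallothionein genes Mt1 and Mt2, whose products bind metals; and the neutrophil-attracting chemokine genes Cxcl2 and Cxcl5. The others were the surface protein gene Psca with the serine protease gene Prss22, a mitosis set (Top2a, Mki67, Aspm and Hmmr), a replication licensing set (Mcm3, Mcm5, Mcm6 and Pcna), and the oxidase subunit gene Cyba with the glutathione transferase genes Gsta1 and Gsta2. Gsta1 and Gsta2 are near-identical, so counting may divide their UMIs and both values are uncertain. One set was raised in 723 cells (38.2%), 2 sets in 437 (23.1%) and 3 or more in 209 (11%). The replication licensing set was raised most often, in 373 cells, and the chemokine set least often, in 204.

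**Figure D1:**
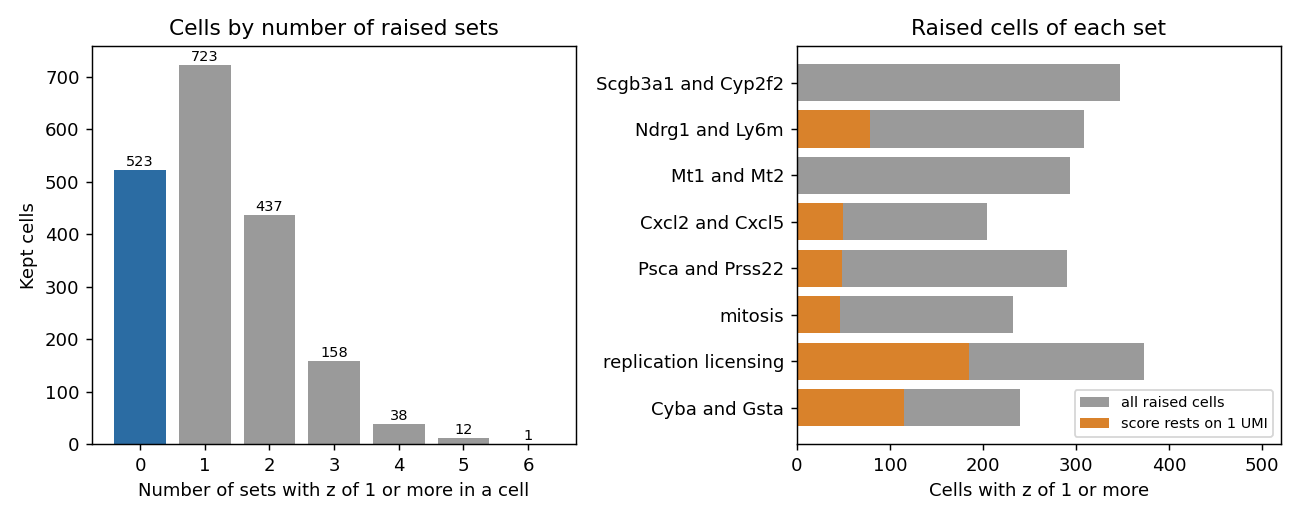
Left, kept cells (count) by the number of gene sets with a z score of 1 or more, with the 523 baseline cells in blue. Right, cells (count) in which each set was raised (grey) and, of these, cells whose raised score rested on 1 UMI (orange), which were 185 of 373 for replication licensing and none for the Scgb3a1 or metallothionein sets.

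In the median baseline cell the Scgb3a1 and Cyp2f2 sum was 2.06 UMIs per 10000 and the metallothionein sum 8.77 per 10000. The medians of the other 6 sums were 0. Among the other kept cells those medians were 2.48, 11.2 and 0. The share of cells at 0 differed, which the rule itself fixes in part: 79.7% of baseline cells and 58.2% of the others had no UMI of the replication licensing set, and 82.8% and 66.9% none of Cyba and the glutathione transferases. The limits differed widely between sets. They lay at 33.4 UMIs per 10000 for the metallothionein set and 22 for the Scgb3a1 set, and between 1.23 (replication licensing) and 1.89 (Psca and Prss22) for the other 6. At the metallothionein limit the highest baseline cell had 33.1 per 10000 and the lowest cell raised in that set alone 34.1. At the replication licensing limit those values were 1.21 and 1.23.

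Many baseline cells lay close to a limit. The highest of the 8 z scores was 0.5 or more in 323 baseline cells (61.8%) and 0.9 or more in 77 (14.7%), and it was below 1.1 in 77 of the other kept cells. All 8 scores were below 0 in 88 baseline cells (16.8%). Where a limit lies near 1 or 2 per 10000, a single UMI can carry a shallow cell across it. Of the 1369 other cells, 175 (12.8%) had no raised set with more than 1 UMI, and 332 (24.3%) none with more than 2. The 175 cells had a median of 5295 gene UMIs. A raised score rested on 1 UMI in 49.6% of the cells raised for replication licensing and in 47.9% of those raised for Cyba and the glutathione transferases. The baseline cells are thus a range of scores below 8 limits, not a cell type.

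To see how far the choice carries over to RNA molecules that did not make it, the UMIs of every cell were divided at random into 2 equal portions. The first portion named 472 baseline cells and the second 494, of which 253 were the same cells, 53.6% of the first and 51.2% of the second. In the whole library the second portion named 26.1% of cells. With every cell thinned to 3000 UMIs, which left out 57 shallower cells, 465 cells were named, and 331 of them were among the 502 baseline cells of that depth (65.9% of those by all UMIs, 71.2% of those by 3000).

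The sets differed in how much of their low level remained in the portion that had not chosen the cells. The metallothionein sum was at 0.462 times the level of the other cells in the portion that chose and at 0.493 (0.473 to 0.513) in the other. The Scgb3a1 and Cyp2f2 sum went from 0.191 to 0.214 (0.202 to 0.227). Scgb3a1 and Mt1 are abundant transcripts, Cyp2f2 and Mt2 less so, and whether abundance plays a part was not tested. The replication licensing sum went from 0.122 to 0.570 (0.455 to 0.708), the Ndrg1 and Ly6m sum from 0.130 to 0.526 (0.422 to 0.649), and the Psca and Prss22 sum from 0.135 to 0.465 (0.391 to 0.549). Prss22 alone went from 0.211 to 0.95, with an interval (0.685 to 1.3) that holds 1. The mitosis sum went from 0.0828 to 0.215 (0.168 to 0.272), the chemokine sum from 0.0523 to 0.146 (0.108 to 0.193), and the Cyba and glutathione transferase sum from 0.0509 to 0.180 (0.141 to 0.228). Both portions come from the same cells and library, so this shows only how molecule sampling acts on the choice.

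**Figure D2:**
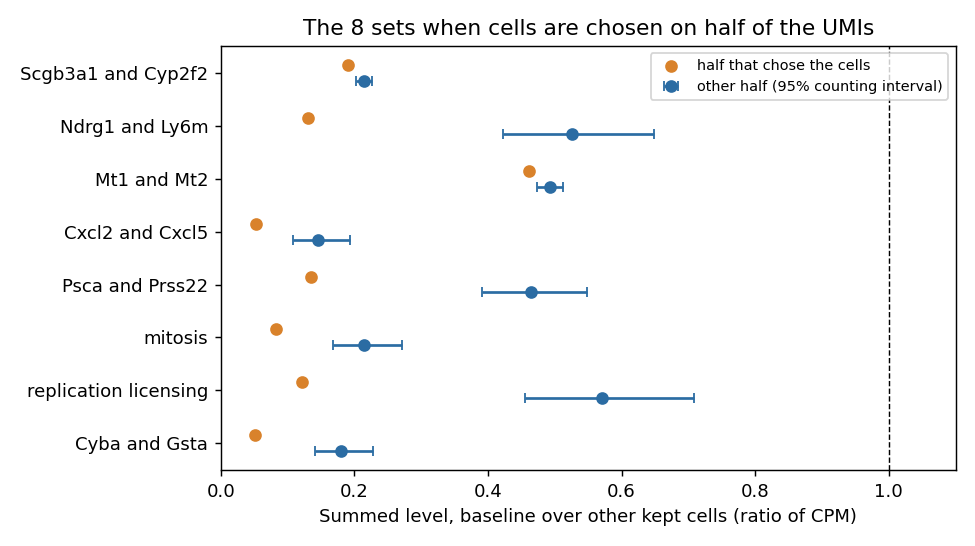
Ratio of the summed level (CPM) of each set in baseline cells over other kept cells when the cells were chosen on 1 random portion of the UMIs. Orange points give the portion that chose the cells and blue points, with 95% counting intervals, the remaining UMIs. All 8 blue points lie to the right of the orange ones, and the replication licensing set moved from 0.122 to 0.570.

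By all UMIs, the genes of the rule were low in baseline cells by construction. Levels are in CPM, UMIs of a gene summed over a group of cells per 1000000 gene UMIs of that group. Each molecule is counted once near its 3′ end, so no correction for gene length was made. Scgb3a1 was at 335 CPM in baseline cells and 2181 CPM in the others, yet it had a UMI in 61.2% of baseline cells and 64.7% of the others. Cyp2f2, the other gene of that set, was at 131 and 158 CPM. Mt1 was at 996 and 2161 CPM, with a UMI in 96.9% of baseline cells. Top2a, the DNA topoisomerase of dividing cells, was at 15.3 and 89.5 CPM, and Pcna, the sliding clamp of replication, at 15.3 and 43.5 CPM. Psca was at 27.5 and 130 CPM. Scgb3a1 and Mt1 UMIs were thus found in most baseline cells, and the share that free RNA in the droplets would give could not be measured, since no cell type that should lack these genes was found in the library. Top2a had a UMI in 14.9% of them, Pcna in 15.7% and Psca in 21.6%. For the 6 sets other than those of Scgb3a1 and of the metallothioneins, 71.3% to 89.1% of baseline cells had no UMI of the set at all.

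The depth of baseline cells was close to that of the rest. Their median was 8689 gene UMIs (quartiles 6668 and 13727) and 2249 genes, against 8306 UMIs (5924 and 13538) and 2214 genes in the others. The ratio of the median depths was 1.05, and 0.865 at a z limit of 0.5. When kept cells were ranked by depth and divided into 4 equal groups, the shallowest held 19.9% baseline cells (16.4% to 23.8%) and the next 33.4% (29.2% to 37.9%), and the deeper ones 29.0% and 28.3%. The median mitochondrial share was 4.25% in baseline cells and 3.95% in the others. Of the 12 multiplexing tags in the matrix, which mark suspensions before pooling, CMO301 was highest in 58.1% of baseline cells and 55.4% of the others, and CMO302 in the rest. The labels do not tie tags to suspensions.

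The epithelial label held. Epcam, an adhesion protein of epithelia, had a UMI in 510 baseline cells (97.5%), and Krt8, a keratin of simple epithelia, in 509 (97.3%), and only 3 had neither. Epcam was at 647 CPM (626 to 668) in baseline cells and 697 CPM (684 to 711) in the others, and Krt8 at 1022 (996 to 1048) and 1012 (996 to 1028). Krt18 had a UMI in 99.8% of baseline cells and Cldn7 in 92.0%. Of 19 markers of fibroblasts, immune, endothelial, muscle and neural cells, 13 had no UMI in baseline cells, among them Ptprc, Col1a1 and Cdh5. The other 6 had 9 UMIs in 9 cells, or 1.72%, against 1.90% of the other kept cells. A count of 0 among 523 cells allows a share of cells with a UMI of up to 0.574%, taken as 3 cells. Chief cell markers had 6 UMIs in baseline cells, parietal markers 4, enteroendocrine markers 1 and tuft markers 8. Pit cell markers had 703 UMIs, in 360 baseline cells (68.8%) and 68.9% of the others. Of the mucous neck markers, the water channel gene Aqp5 was at 1226 CPM, Tff2 at 9.16 CPM in 6.50% of baseline cells, and Muc6 at 0.

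A group of cells that stands apart in the library lay wholly among the other cells. Clustering without the 21 genes gave 6 clusters, and the smallest, cluster 6 with 61 cells, held no baseline cell, which on the same basis allows a share of up to 4.92% (5.87% by the exact interval). UMIs of 4 Y-linked genes were found in 54.1% of its cells and Xist, the RNA of the inactive X chromosome, in 27.9%. In baseline cells the Y-linked genes had 2 UMIs in 2 cells (0.382%) and Xist had a UMI in 419 cells (80.1%). Cluster 6 also held 65.4% of all UMIs of the 4 pit cell markers. Without it, 69 of the 119 lower genes described below stayed at least 1.3-fold lower, and 8 of the 9 higher ones at least 1.3-fold higher. Of the lower genes, 5 moved by more than 1.5 times (Tff1, Gkn1, Gkn2, Agr2 and Pclaf), and none of the higher ones did. The values of these 5 genes without cluster 6 are given below. CMO301 was the highest tag in 60.7% of its cells (47.3% to 72.9%) and in 55.1% of the remaining other cells. Whether the cells of cluster 6 come from another animal or culture than the rest was not tested, and they are among the other kept cells in the ratios given here unless a value is said to leave them out.

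Genes outside the 8 sets differed little. Of 3838 genes with at least 500 UMIs over kept cells, which carry 92.6% of gene UMIs, 3710 (96.7%) lay within 1.3-fold of the other cells. The median log2 ratio was -0.03, with the 5th percentile at -0.30 and the 95th at 0.19. At least 1.3-fold higher in baseline cells were 9 genes, or 0.234% of those compared. At least 1.3-fold lower, at 0.769 times the other level or less, were 119 genes, or 3.10%. Without the 61 cells of cluster 6 the counts were 10 higher and 70 lower. They were 88 and 241 with every cell thinned to 3000 UMIs, and 46 genes were higher in the portion of UMIs that did not choose the cells. These shares are the background for every gene list below. Fold limits were set by size, since no test is possible, and the rule chose on the same cells, so the counts are descriptions.

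The baseline transcriptome was led by housekeeping RNA. Malat1, a nuclear long noncoding RNA, was highest at 25867 CPM, followed by Fth1, the ferritin heavy chain that stores iron, at 14769 CPM. Also among the highest were mt-Co1, a subunit of cytochrome oxidase encoded in mitochondria, at 10814 CPM, and Rpl23, a ribosomal protein gene, at 9910 CPM. The 10 highest genes held 11.5% of baseline UMIs. Malat1 was at 23728 CPM in the other cells and Fth1 at 15186. Of 83 cytosolic ribosomal protein genes, none passed 1.3-fold in either direction, but 78 were above a ratio of 1, with a median log2 ratio of 0.06. They took 37.2% of baseline UMIs and 35.7% of the others. All 13 mitochondrially encoded respiratory chain genes were likewise above 1, with a median of 0.10 and a highest value of 0.16 (mt-Nd6). The 40 nuclear respiratory chain genes had a median of -0.05, with 32 below 0.

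The 9 higher genes were of modest level. Serpinb11, a member of the intracellular serpin family of protease inhibitors (GRCm38 chromosome 1, 107361198 to 107380475, plus strand), was at 93.5 CPM (85.7 to 102) in baseline cells and 64.3 CPM (60.2 to 68.5) in the others, a ratio of 1.46 (1.31 to 1.62). Abcb1b, a drug efflux pump of the P-glycoprotein kind (chromosome 5, 8798147 to 8866315, plus strand), was at 156 and 108 CPM, a ratio of 1.45 (1.33 to 1.57), and Rasa4, a GTPase-activating protein for Ras, at 153 and 108 CPM, 1.41 (1.3 to 1.54). Both had a UMI in most baseline cells, 62.9% for Abcb1b and 65.2% for Rasa4, against 49.4% and 55.3%. Mt3, a metallothionein that the rule did not use, was at 42.6 and 30.0 CPM, 1.42 (1.21 to 1.67). Mt1 and Mt2 were low by the rule itself, so they give no comparison for it. Ndrg3 was at 36.6 and 26.8 CPM, 1.37 (1.15 to 1.62), and its relative Ndrg1 was low by the rule itself. Tent5b, a poly(A) polymerase, had a ratio of 1.33 (1.11 to 1.60), Slc44a2, a choline transporter-like protein, 1.33 (1.13 to 1.56), and Trim44, a tripartite motif protein, 1.3 (1.1 to 1.54). Just under the limit were Ezh1, a histone methyltransferase of Polycomb repressive complex 2, at 1.29 (1.09 to 1.53), the matrix protease gene Mmp7 at 1.29 (1.18 to 1.41), and Cav1, the coat protein of caveolae, at 1.29 (1.15 to 1.44). The Mmp7 ratio was 0.918 with 3000 UMIs per cell and 0.993 at a z limit of 0.5, and the Ezh1 ratio was 0.995 in the portion of UMIs that did not choose the cells, so neither kept its direction under these settings. Of the genes past the fold, Slc44a2 was at 1.04 with 3000 UMIs per cell and 1.06 at a z limit of 1.5, Trim44 at 1.11 with 3000 UMIs, Ndrg3 at 1.11 and Mt3 at 1.17 at a z limit of 0.5, and Tent5b at 1.14 at a z limit of 1.5, all short of the fold. Serpinb11, Abcb1b and Rasa4 stayed at 1.31 or more under each of the 15 alternatives that keep the fold and the minimum.

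The ninth, Sprr1a, a protein of the cornified envelope, rested on 1 cell. That baseline cell had 129 UMIs of the gene, 22.8% of those in the library, in a total of 2815 gene UMIs. Sprr1a was at 35.2 CPM in baseline cells and 25.4 CPM in the others, a ratio of 1.39 (1.16 to 1.65). Without the cell it was at 12.5 CPM and the ratio was 0.492 (0.376 to 0.636), on the other side of 1. Of the 9 genes, 8 stayed above a ratio of 1 when each lost the cell with most of its UMIs, and 7 stayed past 1.3-fold.

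**Figure D3:**
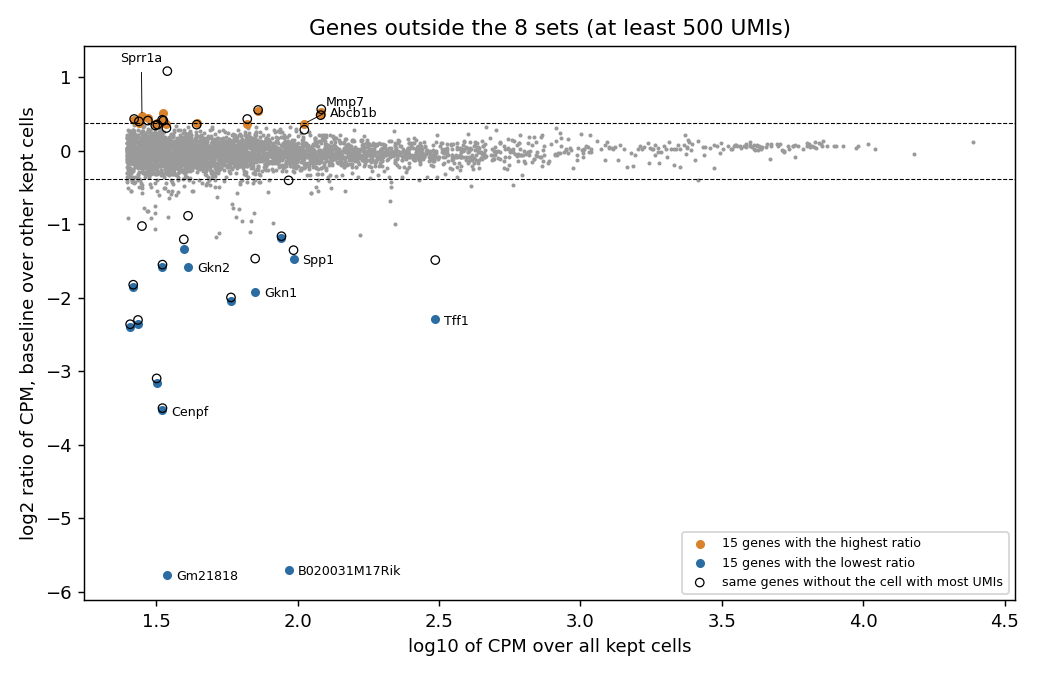
log2 ratio of CPM in baseline over other kept cells (vertical) against log10 of CPM over all kept cells (horizontal) for 3838 genes outside the 8 sets, with dashed lines at 1.3-fold. Orange and blue points are the 15 genes of highest and lowest ratio, and open circles the same genes without the cell that held most of their UMIs, which moved Sprr1a, Gm21818 and B020031M17Rik across or close to a ratio of 1.

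The lowest ratios belonged to 2 predicted genes of chromosome 13 that also rested on 1 cell. Gm21818 (120172433 to 120173888, plus strand) had 5 UMIs in baseline cells and 692 in the others, and B020031M17Rik (119949357 to 119950806, minus strand) 14 and 1857. A single cell of 7374 gene UMIs, raised in the Psca and Prss22 set, held 98.4% and 96.7% of their UMIs. Without it the ratios were 2.12 (0.511 to 8.33) and 0.757 (0.385 to 1.4), with intervals that hold 1. In that 1 cell these RNAs made up 686 and 1810 UMIs.

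Genes of cell division followed, and the choice of cells fixes this in part. All 8 mitosis genes compared and outside the rule were at least 1.3-fold lower in baseline cells, with a median log2 ratio of -1.37, and 2 of 3 DNA replication genes were, with a median of -0.44. Without cluster 6, 1 of the latter, Slbp, which binds histone mRNA, went from 0.739 to 0.776, just inside the fold. Cenpf, a kinetochore protein, was at 3.88 CPM in baseline cells and 44.9 CPM in the others, a ratio of 0.0864 (0.0537 to 0.132). Pclaf, a partner of the replication clamp, was at 4.76 and 42.4 CPM, 0.112 (0.0733 to 0.165), and at 0.196 (0.127 to 0.290) without cluster 6. Birc5, which serves chromosome segregation and survival, was at 6.34 and 33.2 CPM, and Cdk1, the kinase that drives entry into mitosis, at 9.16 and 33.0 CPM. The histone genes Hist1h2ae and Hist1h2ap, whose near-identical copies make their counts uncertain, had ratios of 0.195 and 0.243. Stmn1, a regulator of microtubules, was at 46.0 and 104 CPM. Ezh2, the methyltransferase of Polycomb repressive complex 2 that is known to follow proliferation, was at 21.0 and 28.5 CPM, 0.735 (0.594 to 0.903), and at 0.813 (0.655 to 1.0) without cluster 6, while its relative Ezh1 lay above 1 and Eed and Suz12 had ratios of 1.09 and 1.03. With cells raised for mitosis or replication licensing left out of the comparison, the mitosis median was -0.07, the number of lower genes 53, and Prc1, a protein of the spindle midzone, went from 0.335 to 1.21. In that setting Cenpf was at 0.709, Cdk1 at 0.718, Hist1h2ae at 0.689, Pclaf at 0.887 and Birc5 at 0.954. The first 3 were past the fold but rested on 22, 52 and 39 UMIs in baseline cells. No interval was made for that setting, so a remaining difference cannot be read from them. With 3000 UMIs per cell the ratios of Cenpf, Pclaf and Hist1h2ae were 0.198, 0.258 and 0.417. In a list of CDK inhibitors, D cyclins and their kinases, none of the 8 genes compared passed 1.3-fold, and Cdkn2a was at 511 and 494 CPM and Ccnd1 at 457 and 423 CPM. The inhibitor gene Cdkn2d, which the list does not hold, was lower, at 23.4 and 32.9 CPM, 0.712 (0.583 to 0.865).

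Pit cell genes had low ratios, whose size depended on which other cells were included, on thinning and on how cells were averaged. Tff1, a trefoil peptide of surface mucus (chromosome 17, 31161395 to 31165277, minus strand), was at 81.0 CPM (73.8 to 88.8) in baseline cells and 396 CPM (385 to 406) in the others, a ratio of 0.205 (0.186 to 0.225). The gastrokine genes Gkn1 and Gkn2, neighbours on chromosome 6, were at 23.6 and 89.4 CPM, 0.264 (0.219 to 0.316), and at 16.9 and 50.5 CPM, 0.335 (0.268 to 0.415). One other cell of 47183 gene UMIs, the deepest in the library, held 2441 of 6172 Tff1 UMIs (39.5%), 24.8% of Gkn1 and 33.9% of Gkn2. Without it the ratios were 0.357, 0.362 and 0.542. With 3000 UMIs per cell they were 0.423, 0.562 and 0.742, and as a mean over cells 0.450, 0.625 and 0.618. Without the 61 cells of cluster 6 they were 0.726, 0.735 and 0.791, with Tff1 and Gkn1 still past the fold, and without all 240 cells raised for Cyba and the glutathione transferases the Tff1 ratio was 1.01 and the Gkn2 ratio 1.1. The share of cells with a Tff1 UMI was alike throughout, 54.9% of baseline cells and 54.6% of the others, and 23.3% and 23.5% at 3000 UMIs per cell. The share that free RNA would give could not be measured for Tff1 either. Muc1, a mucin of the cell surface, was at 140 and 162 CPM, 0.860 (0.792 to 0.932).

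The promoters of the gastrokine pair are shown because the 2 genes are neighbours and were both lower in baseline cells. Their levels in the other cells differed, at 89.4 CPM for Gkn1 and 50.5 CPM for Gkn2. Whether the promoters bear on these levels was not tested. Each is the 250 bases before the RefSeq start (GRCm38.p6, 5′ to 3′), at chr6:87350916-87351165 on the minus strand for Gkn1 and chr6:87373115-87373364 on the plus strand for Gkn2. Capitals mark matches to the core promoter element TATAAA and to AGATAA, a motif bound by zinc finger factors of the stomach and other tissues. Both strands were searched, also for the forkhead motif TGTTTAC, and the motifs do not overlap here.
Gkn1: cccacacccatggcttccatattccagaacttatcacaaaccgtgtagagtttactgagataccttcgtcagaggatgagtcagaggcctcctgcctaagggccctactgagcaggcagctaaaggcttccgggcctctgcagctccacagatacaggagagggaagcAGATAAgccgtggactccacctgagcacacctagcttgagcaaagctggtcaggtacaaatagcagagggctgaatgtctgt
Gkn2: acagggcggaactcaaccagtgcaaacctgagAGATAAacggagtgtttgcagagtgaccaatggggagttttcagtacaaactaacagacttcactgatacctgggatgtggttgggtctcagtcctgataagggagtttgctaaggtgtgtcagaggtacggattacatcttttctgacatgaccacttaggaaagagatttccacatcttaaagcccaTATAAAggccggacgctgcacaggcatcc
AGATAA began at position -82 from the start of Gkn1 and -218 from that of Gkn2, and TATAAA at -29 of Gkn2 only. TGTTTAC was in neither window. Of 27025 promoters of this length, 10.3% held AGATAA, 13% TATAAA and 3.09% TGTTTAC on either strand.

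Of 3 mucosal defence genes compared, 1, Lcn2, was at least 1.3-fold lower, and the median log2 ratio of the list was -0.35. It was -0.06 at a z limit of 0.5, -0.52 with 3000 UMIs per cell, and -0.54 and -0.13 in cells tagged CMO301 and CMO302. Spp1, the adhesive protein osteopontin, was at 42.6 and 118 CPM, a ratio of 0.361 (0.314 to 0.413), and Agr2, which folds mucins, at 18.8 and 47.8 CPM, 0.394 (0.319 to 0.484). Without cluster 6 the Agr2 ratio was 0.637 (0.510 to 0.791), and as a mean over cells 0.612. Lcn2, an iron-scavenging defence protein, was at 89.0 and 197 CPM, 0.452 (0.411 to 0.497), but had a UMI in 36.1% of baseline cells and 36.5% of the others, and cells raised for Cxcl2 and Cxcl5 held 49.4% of its UMIs. Cxcl1, a chemokine outside the rule, was at 28.7 and 62.4 CPM, 0.460 (0.387 to 0.544), with 52.6% of its UMIs in those same cells. Reg3g, an antimicrobial lectin, had no UMI in baseline cells and 94 in the others, 83.0% of them in cells raised for metallothioneins and 86.2% in cluster 6. The EGF receptor ligand Areg was at 17.6 and 36.9 CPM, 0.477 (0.382 to 0.592), with a UMI in 13.2% of baseline cells and 15.2% of the others. Without cluster 6 the Areg ratio was 0.657 (0.521 to 0.822). The ligands Hbegf and Tgfa had ratios of 1.16 (1.11 to 1.20) and 1.28 (1.06 to 1.52), and 1.13 and 1.24 without cluster 6.

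Some antioxidant genes and a few chaperone genes were lower. Of 11 NRF2-linked genes compared, 4 were at least 1.3-fold lower, with a median log2 ratio of -0.22 against -0.03 for all genes. These were Gsr, which regenerates glutathione (40.0 and 65.8 CPM, ratio 0.608), Gclc, which makes it (26.1 and 39.3, 0.663), the cystine importer Slc7a11 (0.756) and the thioredoxin reductase Txnrd1 (0.758). Of 11 glutathione transferases outside the rule, 3 were lower, and the largest difference among abundant ones was that of Gsto1, at 456 and 628 CPM, 0.726 (0.695 to 0.759). Mgst1, at 686 and 636 CPM, lay above 1. Of 12 genes of the unfolded protein response, 2 were lower, the chaperone Hsp90b1 (218 and 288 CPM, 0.755) and Sdf2l1 (0.755), and 11 of 12 were below 0 in log2 ratio, while Xbp1, the transcription factor of that response, was at 339 and 332 CPM. Of 21 proteasome genes in the list, 20 were below 0 with a median of -0.18 (-0.03 with 3000 UMIs per cell), and 1, Psmc3, passed 1.3-fold at 0.752 (0.651 to 0.867). Psmc4, a proteasome ATPase gene outside the list, passed too, at 0.662 (0.543 to 0.802). Cytosolic heat shock genes had a median of -0.02 and none of 14 passed. Most of these calls ended when the 61 cells of cluster 6 were left out. Gsr, at 0.713 (0.612 to 0.828), was then the only member of the 4 lists with calls still past 1.3-fold, and Psmc4, outside them, was at 0.706 (0.578 to 0.858). Slc7a11 was at 0.989 (0.792 to 1.23), Gsto1 at 0.906 (0.865 to 0.948), Txnrd1 at 0.867, Gclc and Mgst3 at 0.833 each, Psmc3 at 0.821, Hsp90b1 at 0.809, Sdf2l1 at 0.807 and Mgst2 at 0.788.

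Immediate early genes tended the other way. Of 13 such transcription factor and feedback genes, which respond within minutes to growth factors or handling, 12 were above 0, with a median log2 ratio of 0.16, and none passed 1.3-fold. Fos was at 2592 CPM (a ratio of 1.16, 1.14 to 1.18), Atf3 at 1206 (1.16), Egr1 at 1122 (1.17) and Fosb at 580 CPM (1.22, 1.17 to 1.27). The transcription factor Klf4 was at 447 and 381 CPM, 1.17 (1.12 to 1.23).

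Epithelial identity was shared. None of 10 epithelial, 7 adherens junction, 8 tight junction, 4 desmosome or 6 keratin genes passed 1.3-fold, and their median log2 ratios lay between -0.04 and 0.10. Cdh1, the gene of E-cadherin, was at 96.7 and 99.6 CPM, and its partners Ctnna1 and Ctnnd1 had ratios of 1.08 and 0.990. Of the junction genes with at least 500 UMIs, Cldn18, the stomach claudin, was lowest at 91.2 and 115 CPM, 0.796. Without cluster 6 its ratio was 0.922 (0.831 to 1.02). None of 6 stomach transcription factors compared passed. Sox2, a factor of the foregut and stomach, was at 42.3 and 38.8 CPM, and Sox9 at 84.7 and 80.5 CPM. Gata4, Gata6, Foxa1, Foxa2 and Hnf4a were below the minimum of 500 UMIs. Levels of fetal-like and regenerative genes varied. Ly6a was at 3292 CPM (1.07), Ly6d at 3060 (0.981), Clu at 2131 (0.761) and Anxa1 at 723 CPM (1.14). Of the 10 in that list, Spp1 and Clu were at least 1.3-fold lower and Sprr1a, the gene that rested on 1 cell, higher, and the median was -0.02. Without cluster 6 the Clu ratio was 0.918 (0.899 to 0.937).

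Of 40 lists with at least 3 genes compared, 33 had a median within 0.2 of 0, and 25 had no member past 1.3-fold. The 4 with a median past the fold on the lower side were mitosis, DNA replication, the gastric lineage list and the pit list, and the last 2 of these share 3 genes. Without cells raised for Cyba and the glutathione transferases the gastric lineage and pit medians were -0.02 and 0.01, and without cluster 6 they were -0.39 and -0.44. The DNA replication median was -0.21 at a z limit of 0.5 and -0.05 without cells raised for mitosis or replication licensing. No list had a median past the fold on the higher side. Of 20 hypoxia and glycolysis genes, 1 was lower, Ero1l, an oxidase of the endoplasmic reticulum, at 166 and 233 CPM (0.712, 0.662 to 0.766), although the rule uses the hypoxia gene Ndrg1. Car9, Bnip3 and Vegfa had ratios of 1.12, 0.973 and 1.03.

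Baseline cells were not a cluster of their own. Among the 15 nearest cells of a baseline cell, by 30 principal components of 2000 variable genes without the 21 of the rule, a mean of 38.1% were baseline, against 29.5% around the other cells and 27.6% of all kept cells. Most neighbours were baseline for 104 baseline cells (19.9%) and for 141 of the others (10.3%). Clusters 1, 2 and 3 held 32.1%, 32.5% and 32.8% baseline cells, and cluster 4 held 22.3% (17.9% to 27.2%). Cluster 5, led by Knl1, Aurka and Cenpf, genes of the spindle and kinetochore, held 4.44%, 6 of 135 cells. Of the 523, 31.4% were in cluster 1, 28.7% in cluster 2, 24.9% in cluster 3 and 14% in cluster 4. The clusters were given no cell type names.

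The baseline cells of clusters 1 to 4 differed from each other. These genes took part in the clustering, so the levels describe the clusters. Malat1 was at 46243 CPM in baseline cells of cluster 3, 30223 in cluster 2, 12518 in cluster 1 and 10824 in cluster 4. Tmem176a, which encodes a membrane protein, was at 2850 and 2534 CPM in clusters 1 and 2 and at 543 and 448 in clusters 3 and 4. The water channel Aqp5 followed it, at 1735, 1499, 619 and 708 CPM in cluster order, as did Mmp7, at 205, 148, 58.5 and 56.1. Serpinb11 was at 166 and 121 CPM in clusters 1 and 2 and at 32.0 and 13 in clusters 3 and 4. The hypoxia genes Bnip3 and Car9 ran the other way, Bnip3 at 144, 181, 463 and 440 CPM and Car9 at 94.2, 113, 245 and 236 CPM. Cluster 4 had the highest levels of Nupr1, a stress-induced chromatin protein, at 1953 CPM, and of Gapdh, at 3732 CPM, and the lowest of mt-Co3, at 3926 CPM against 8400 in cluster 3. Krt8 and Epcam hardly varied, Krt8 between 913 and 1092 CPM and Epcam between 620 and 672.

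Within a cluster, several of these genes had like levels in baseline and other cells, and no count over all genes was made there. In cluster 3, Malat1 was at 46243 CPM in baseline and 41410 in other cells, Bnip3 at 463 and 569, and Tmem176a at 543 and 552. In cluster 1, Tmem176a was at 2850 and 3207 CPM and Aqp5 at 1735 and 1876. Among the exceptions were genes of the rule, such as Scgb3a1 at 426 and 4492 CPM in cluster 1, and Ero1l, at 228 and 455 CPM in cluster 3. Serpinb11 was higher in baseline cells in 3 of these clusters, at 166 against 118 CPM in cluster 1, 121 against 105 in cluster 2 and 32.0 against 14.3 in cluster 3, and was at 13 against 15.1 in cluster 4. Sprr1a had 150 UMIs in baseline cells of cluster 4, of which 129 were in the 1 cell described above.

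**Figure D4:**
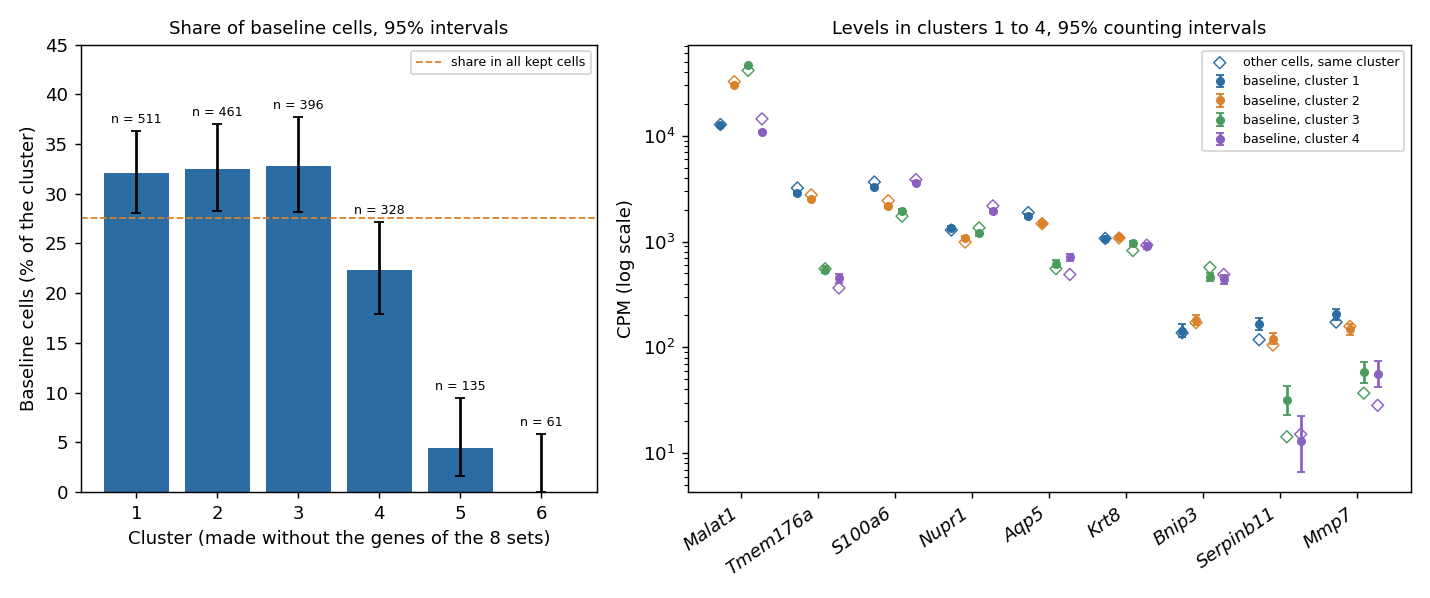
Left, share of baseline cells (% of the cluster) in each of 6 clusters made without the genes of the 8 sets, with 95% binomial intervals, n as cells in the cluster, and the share in all kept cells as a dashed line. Right, level (CPM, log scale) of 9 genes in baseline cells (filled, 95% counting intervals) and other cells (open) of clusters 1 to 4, where the 2 kinds lie close together for Malat1, Tmem176a and Krt8.

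Among single baseline cells, a few abundant genes carried most of the variation. At 3000 UMIs per cell, in 502 baseline cells, the median ratio of variance to mean over 2935 genes was 1.05, near the value of 1 that counting alone gives, and 70 genes (2.39%) exceeded 2. In the other cells the median was 1.07 and 103 genes exceeded 2. Malat1 varied most, from 0 to 626 UMIs per cell with a median of 48.0 and a ratio of 106. Fth1 came next, from 5 to 197 UMIs with a median of 39.0. Tmem176a ran from 0 to 34.0 with 17.7% of cells at 0, Nupr1 from 0 to 39.0 and Fabp5, a fatty acid binding protein, from 0 to 32.0. Ltf, the iron-binding defence protein lactoferrin, and Mmp7 were found in few cells, with 72.3% and 79.9% of baseline cells at 0 and highest counts of 20 and 17. Clu and S100a6 varied less in baseline cells, with ratios of 4.97 and 4.87, than in the others, with 11.4 and 11.7. Lcn2 had 3.15 and 17.2. Most of the other highly variable genes also had a lower ratio in baseline cells, such as Malat1, with 106 and 160. Mmp7 went the other way, at 4.63 and 3.87, as did Prxl2a, at 3.39 and 3.24.

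Some of these genes moved together across the 502 thinned baseline cells. On log values, Pearson's r was 0.83 for mt-Co1 and mt-Co2, 0.76 for the neighbouring genes Tmem176a and Tmem176b, and 0.60 for the nuclear RNAs Malat1 and Neat1. Tmem176a and Aqp5 had 0.41, mt-Co3 and the glycolytic gene Gapdh -0.39, and Malat1 and S100a6 -0.23. The cells share a library and a fixed total of UMIs, so these values are descriptions only.

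Against cells raised in 1 set alone, baseline cells sat between the others in several genes. Of 1114 genes with at least 2000 UMIs, 61 (5.48%) were at least 1.3-fold higher in baseline cells than in the 186 cells raised only in Scgb3a1 and Cyp2f2, and 40 (3.59%) lower. Against the 123 cells raised only in Psca and Prss22 the counts were 28 (2.51%) higher and 66 (5.92%) lower, and against the 100 raised only in Ndrg1 and Ly6m they were 155 (13.9%) and 114 (10.2%). These groups had median depths of 9758, 9764 and 9697 UMIs, and counting error is larger in the smaller groups. Trf, the iron carrier transferrin, was at 90.2 CPM in baseline cells, 323 in the Scgb3a1 group, 18.3 in the Psca group and 19.9 in the Ndrg1 group. Tmem176a was at 1805, 3785, 1098 and 461 CPM in the same order. Bnip3 was at 279 CPM in baseline cells, 112 in the Scgb3a1 group and 531 in the Ndrg1 group, and Ero1l at 166, 85.8 and 497. S100a6 was at 2637 CPM against 5008 in the Psca group, Krt7 at 484 against 976, and Nupr1 at 1321 against 2194 there and 607 in the Scgb3a1 group. Mmp7 was higher in baseline cells, at 126 CPM, than in the Psca group (59.1) and the Ndrg1 group (19.9).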

How the data were processed

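One library was analysed. The deposited matrix holds raw counts of UMIs per gene and barcode for 32285 genes and 12 multiplexing tags, which the authors made with Cell Ranger 6.1.2 on GRCm38/mm10, per the submitters' processing notes. Tag counts were left out of all totals. The kept cells held 890 to 47183 gene UMIs each, 20118334 in all. UMIs were summed over cells and scaled to CPM. CPM carry exact Poisson, ratios exact conditional binomial and shares exact Clopper-Pearson intervals. Doublets were kept, since the rule keeps them. Scrublet in scanpy 1.11.5 called 12 of 1892 cells (0.634%), 2 of them baseline. Clusters came from 2000 variable genes, 30 principal components and 15 neighbours, with Leiden (leidenalg 0.10.2) at resolution 0.6.

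Named genes are those of the 8 sets, Epcam and Krt8, the 15 highest and 15 lowest ratios, the 10 highest levels, the 15 most variable genes, markers of other cell types, and list members that are abundant or past the fold. Some further list members (Ezh1, Ezh2, Eed, Suz12, Hbegf, Tgfa, Cldn18, Sox2, Reg3g, Vegfa), the genes Cdkn2d and Psmc4, which no list holds, and the genes given by cluster were chosen after their values were seen. The members and the 56 gene lists were chosen with earlier results of these data known. Ratios were tested on simulated data. Gene coordinates are those of GENCODE M21, and promoters those of RefSeq on GRCm38.p6.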

Additional observations from a re-analysis of the deposited data

How the results depend on the processing

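The 74 results were recomputed under 17 alternatives, which gave 1096 values. A value counted as moved when it left the counting interval of the reported one, or, for a count, differed by more than 1.5 times. Among counts, depth and the list medians past the fold, 62 values held, 43 moved and 1 past the fold changed sign. Among the remaining lists and genes, 849 held, 126 moved and 15 past the fold changed sign. Changes of sign in values within the fold, such as those of Mmp7 and Ezh1, are counted with the others. The causes of the shifts were not tested, except where fewer cells or another limit make them. The omission of the cell with most UMIs of a gene and of cluster 6 were chosen after seeing the data. There were 200 baseline cells at a z limit of 0.5 and 932 at 1.5. Higher genes numbered 88 with 3000 UMIs per cell, 48 at a z limit of 0.5, 15 with a minimum of 1000 genes, 46 with levels from the portion that did not choose, 14 as a mean over cells, 20 without ribosomal and mitochondrial genes in the denominator, 0 at a fold of 1.5, 204 with a minimum of 100 UMIs, 17 without cells raised for mitosis or replication licensing, 26 in cells tagged CMO301 and 74 in those tagged CMO302. Lower genes numbered 241 with 3000 UMIs per cell, 190 at a z limit of 0.5, 43 at a fold of 1.5, 740 with a minimum of 100 UMIs, 73 without cells raised for Cyba and the glutathione transferases, 53 without those raised for mitosis or replication licensing, 70 without cluster 6 and 183 in cells tagged CMO301. Of the 9 higher genes, 4 to 9 stayed past the fold over the 15 alternatives with the same fold and minimum, and of the 119 lower ones 47 to 117. The ratio of median depth was 0.865 at a z limit of 0.5, against 1.05.

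The gastric lineage median was -0.63 and the pit median -0.83 with 3000 UMIs per cell, -2.06 and -2.23 at a z limit of 1.5, -1.31 and -1.45 in the portion that did not choose, -0.69 and -0.69 as a mean over cells, -0.02 and 0.01 without cells raised for Cyba and the glutathione transferases, -2.23 and -2.45 in cells tagged CMO301, -1.0 and -1.07 in those tagged CMO302, -1.17 and -1.47 without the cell with most UMIs, and -0.39 and -0.44 without cluster 6. The DNA replication median was -0.21 at a z limit of 0.5 and -0.05 without cells raised for mitosis or replication licensing, and the mitosis median was -0.07 there and -1.68 in cells tagged CMO301. Sprr1a reversed to 0.783 with 3000 UMIs, 0.897 at a z limit of 1.5, 0.455 in cells tagged CMO302 and 0.492 without its top cell. Gm21818 reversed to 451, 140, 4.28, 1.48 and 2.12 with 3000 UMIs, a z limit of 1.5, a minimum of 1000 genes, cells tagged CMO301 and no top cell, and B020031M17Rik to 360, 46.2 and 1.4 under the first 3 of these, since the 1 cell that holds their UMIs changed group or was dropped. Without cells raised for Cyba and the glutathione transferases Tff1 went to 1.01 and Gkn2 to 1.1, and Prc1 went to 1.21 without those raised for mitosis or replication licensing. No paired analysis was possible because a single library carries no replicate numbers. Depth limits the comparison to genes of at least 500 UMIs, and counting intervals are wider for the genes below that.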

Other observations

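Baseline cells held nearly the level of the other cells for several further gene groups. Of 14 cholesterol genes compared none passed 1.3-fold, with a median log2 ratio of -0.01, and of 7 interferon and MHC class I genes none did, with a median of -0.01. The 9 YAP target genes had a median of 0.04, with Ccn1 at 101 CPM (1.14, 1.03 to 1.26), Ccn2 at 111 CPM (1.15, 1.04 to 1.26) and Crim1 at 83.3 CPM (1.25, 1.12 to 1.39), while Birc5 and Areg were at least 1.3-fold lower. The S100 genes, which bind calcium, had a median of -0.19 over 7 genes, none past the fold, with S100a6 at 2637 and 3112 CPM and S100a10 at 1446 and 1420 CPM. Hes1, a target of Notch, was at 934 and 824 CPM, and Rnf43, which removes Wnt receptors from the surface, at 33.6 and 26.7 CPM, 1.26.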
